A study of Mus musculus with 3 samples.

Results

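The genes described here are 10 enzymes and enzyme partners that use arginine, tryptophan or arachidonic acid, and that myeloid cells can use to restrain T cells or to make lipid mediators. They are the arginases Arg1 and Arg2, the inducible nitric oxide synthase Nos2, the tryptophan-degrading dioxygenase Ido1, the cyclooxygenases Ptgs1 and Ptgs2, the prostaglandin E synthase Ptges, the 5-lipoxygenase Alox5, its activating protein Alox5ap, and the thromboxane synthase Tbxas1. They were chosen by name, as 10 of the 31053 genes in the deposited tables, with earlier results of these data known. Whole tumors from 3 TH-MYCN mice, 1 tumor per mouse, were dissociated and profiled by droplet single-cell RNA sequencing when the mice were 62 (tumor 1), 79 (tumor 2) and 63 (tumor 3) days old. Every mouse was heterozygous for the transgene, in which the tyrosine hydroxylase (TH) promoter drives human MYCN in cells of the neural crest lineage, so that the mice develop neuroblastoma. The 3 tumors form a single group with no untreated or transgene-free tissue, and each comparison is between cell classes of the same tumors.

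Arginases split arginine into ornithine and urea, with Arg1 in the cytosol and Arg2 in mitochondria, while Nos2 turns the same amino acid into nitric oxide. Ido1 opens the ring of tryptophan on the way to kynurenine. The cyclooxygenases convert arachidonic acid to a short-lived prostaglandin that Ptges turns into prostaglandin E and Tbxas1 into thromboxane. Ptgs1 is the form present at rest in many cells, and Ptgs2 is the form induced by inflammatory signals. Alox5, which works with the membrane protein Alox5ap, starts the synthesis of leukotrienes. Arg1, Nos2, Ptgs2 and Ido1 are widely used as readouts of suppressive myeloid cells, including the neutrophil-related suppressor cells found in tumors.

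Promoter sequences were at hand for 5 of the 10 genes, and 4 are shown because they belong to the genes with the clearest class patterns: the 2 cyclooxygenase paralogs, which differed in the cells that held them, Alox5 from the neutrophil-like pattern and Tbxas1 from the macrophage-like pattern. Each runs 5′ to 3′ on the gene's own strand, from 250 bases before to 50 bases from the start of the gene in RefSeq (build GRCm38.p6). The positions are chr2:36230176-36230475 on the plus strand for Ptgs1, chr1:150099781-150100080 on the plus strand for Ptgs2, chr6:116461129-116461428 on the minus strand for Alox5, and chr6:38918736-38919035 on the plus strand for Tbxas1, where the RefSeq start lies inside the longer gene span of the GENCODE annotation. Capitals mark matches to 6 motifs searched on both strands: the TATA box (letters TATAAA), part of the cAMP response element (TGACG), the GC box (GGGCGG), the C/EBP motif (TTGCNNAA), a purine-rich ETS-type motif (GAGGAA) and the E-box (CACGTG).
Ptgs1: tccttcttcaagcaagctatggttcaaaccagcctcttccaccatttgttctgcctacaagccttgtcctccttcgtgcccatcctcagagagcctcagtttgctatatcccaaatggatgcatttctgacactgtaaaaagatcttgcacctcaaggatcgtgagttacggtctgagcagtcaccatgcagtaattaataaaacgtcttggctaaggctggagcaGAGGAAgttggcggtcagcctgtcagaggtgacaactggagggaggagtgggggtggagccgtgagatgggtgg
Ptgs2: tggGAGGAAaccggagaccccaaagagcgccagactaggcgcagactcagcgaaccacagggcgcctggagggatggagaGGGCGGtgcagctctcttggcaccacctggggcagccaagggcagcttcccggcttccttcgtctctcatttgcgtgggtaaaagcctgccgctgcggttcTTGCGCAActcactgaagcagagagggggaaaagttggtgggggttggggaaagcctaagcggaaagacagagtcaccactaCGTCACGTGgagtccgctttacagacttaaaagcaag
Alox5: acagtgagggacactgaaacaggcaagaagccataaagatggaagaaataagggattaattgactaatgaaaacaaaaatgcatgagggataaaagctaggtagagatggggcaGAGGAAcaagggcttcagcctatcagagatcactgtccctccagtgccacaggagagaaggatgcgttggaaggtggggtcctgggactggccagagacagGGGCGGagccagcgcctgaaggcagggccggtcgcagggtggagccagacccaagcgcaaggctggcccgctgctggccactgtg
Tbxas1: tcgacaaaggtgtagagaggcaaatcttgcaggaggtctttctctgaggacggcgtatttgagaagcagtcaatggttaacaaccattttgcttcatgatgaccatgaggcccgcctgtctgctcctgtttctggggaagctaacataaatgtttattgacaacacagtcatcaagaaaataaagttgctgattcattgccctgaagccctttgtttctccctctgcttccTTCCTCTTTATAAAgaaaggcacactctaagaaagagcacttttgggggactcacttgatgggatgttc

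The cyclooxygenase promoters differed in composition, with 50.67% GC and 6 CG pairs for Ptgs1 and 59.33% GC and 16 CG pairs for Ptgs2, against a median of 52.7% GC over all promoters. The Ptgs2 window held a C/EBP match 69 bases before the start, a motif present in 10.8% of the 32851 promoters searched, and TGACG and E-box matches that overlap each other after the start (20.81% and 7.15% of promoters). The Ptgs2 and Alox5 windows both held a GC box, as did 35.66% of promoters. A purine-rich GAGGAA match stood in all 4 windows shown and in 28.28% of promoters, at 24, 247, 136 and 19 bases before the start for Ptgs1, Ptgs2, Alox5 and Tbxas1. Tbxas1 alone of the 4 held a TATA box match, which 13.62% of promoters have, and its forward and reverse matches overlap each other. These are matches of letters, and no binding was measured.

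The deposited counts are of unique molecular identifiers (UMIs), which count each captured RNA molecule once. Barcodes that the authors retained in their normalized tables were taken as cells, 5650 in all, with 1914, 1221 and 2515 in tumors 1, 2 and 3 and medians of 4282.5, 1594 and 1816 raw UMIs. Tumors 1 and 2 shared 3 of these barcodes, tumors 2 and 3 shared 1, and tumors 1 and 3 shared 0. Cells were clustered without the 10 genes and named from marker lists, as neutrophil-like (236, 54 and 22 cells in tumors 1, 2 and 3), macrophage-like (644, 115 and 186), tumor-like (350, 843 and 1986) and 8 smaller classes, with 305 cells left unnamed. All 9 neutrophil markers met the naming rule in the neutrophil-like cluster. Their summed level was 146498, 139117 and 43699 CPM (UMIs per 1000000 UMIs of the summed cells) there, against 184, 143 and 82.5 CPM in macrophage-like cells. The 9 tumor cell markers summed to 30.8, 638 and 803 CPM in macrophage-like cells, against 2264, 2116 and 2236 CPM in tumor-like cells, so that tumor 1 stood apart in depth and in the amount of tumor cell RNA found in other classes.

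The 10 genes ranged from 1 UMI to 5981 UMIs over the 5650 cells. Alox5ap was found in 1065 cells (5981 UMIs), Arg2 in 260 cells (489 UMIs), Ptgs2 in 235 cells (1133 UMIs), Ptgs1 in 139 cells (302 UMIs), Tbxas1 in 107 cells (182 UMIs), Alox5 in 87 cells (103 UMIs) and Arg1 in 60 cells (109 UMIs). Ptges, Nos2 and Ido1 were rare, with 58, 7 and 1 UMIs in 30, 7 and 1 cells. The raw tables held more, since 61.1% of the Arg1 UMIs and 56.5% of the Ptgs1 UMIs lay in barcodes that the authors did not keep. Counts of the kept cells were summed per tumor and class wherever a tumor held at least 10 cells of that class, which gave 26 sums in 11 classes. The filter on low counts left 11009 genes, among them 7 of the 10, while Nos2, Ido1 and Ptges did not pass and were not tested. NK cell-like and mesothelial-like sums came from tumor 1 alone, and plasmacytoid dendritic cell (pDC)-like, cancer-associated fibroblast (CAF)-like and erythroid-like sums from 2 tumors each.

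**Figure D1:**
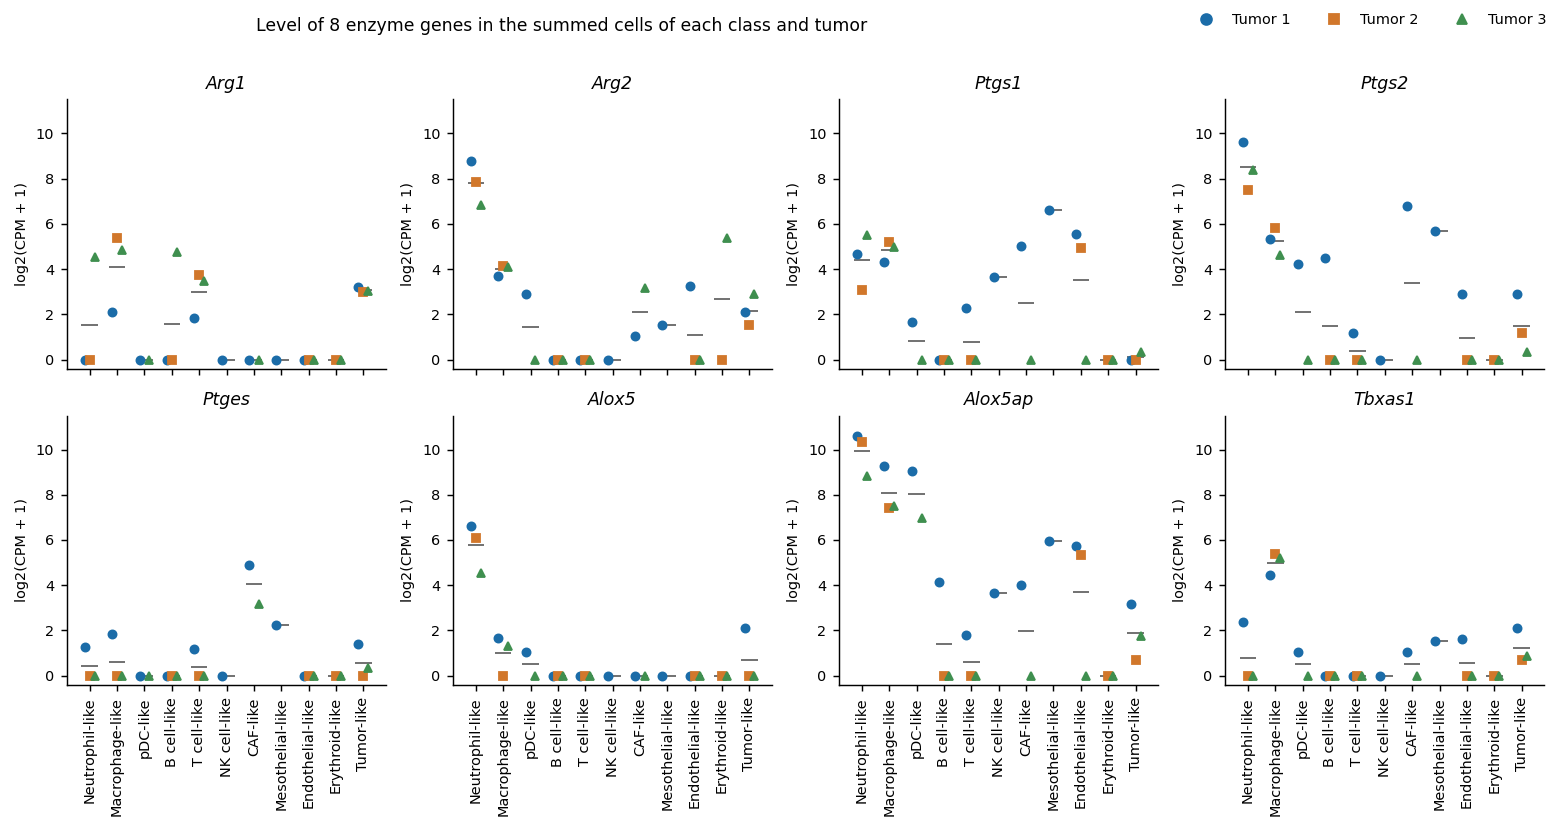
Level of 8 of the 10 genes in the summed cells of each class, as log2(CPM + 1) with 1 symbol per tumor. Grey bars are means over the tumors with a sum. Arg2 and Alox5 have their highest 3 values in neutrophil-like cells, Tbxas1 in macrophage-like cells, and Ptgs1 is spread over macrophage-like, neutrophil-like, mesothelial-like and endothelial-like cells.

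Neutrophil-like cells held the most Arg2, Ptgs2, Alox5 and Alox5ap of any class on average. They held 78.3%, 73.8% and 10.9% of the Arg2 UMIs of tumors 1, 2 and 3, and in tumor 3, with 22 neutrophil-like and 1986 tumor-like cells, the tumor-like cells held 52.2%. Their share of the Ptgs2 UMIs was 53.5%, 42.1% and 46.9%, and of the Alox5 UMIs 75%, 100% and 50% (69 of 92, 9 of 9 and 1 of 2). For Alox5ap it was 19.9%, 68.3% and 12.6%. These shares also depend on how many cells of each class a tumor holds. The 305 unnamed cells, which entered no sum and no comparison, held 69 Ptgs2, 7 Alox5, 105 Alox5ap and 5 Arg2 UMIs. Of their Ptgs2 UMIs, 65 lay in 4 cells of tumor 1. Arg2 and Ptgs2 are among the genes that the study itself named in these cells from the same tumors, so their level here is not independent evidence.

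Arg2 stood at 444, 232 and 112 CPM in the neutrophil-like cells of tumors 1, 2 and 3, from 314, 31 and 5 UMIs, and at 11.96, 16.7 and 16.2 CPM in the macrophage-like cells. The 3 neutrophil-like values all lay above every value of the next class, the erythroid-like cells, in which 1 UMI gave a mean of 19.97 CPM over 2 tumors. With edgeR's quasi-likelihood test and Benjamini-Hochberg adjustment over all 11009 genes, Arg2 was higher than the unweighted mean of the other classes by 7.997 on the log2 scale (SE 0.61, adjusted p = 1.3e-08). Arg2 had 0 UMIs in the T cell-like, B cell-like and NK cell-like sums.

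Ptgs2 stood at 791, 180.0 and 336 CPM in neutrophil-like cells, from 559, 24 and 15 UMIs. No sum of another named class reached these values, and the next by mean was the CAF-like class, at 108 and 0 CPM in tumors 1 and 3. The difference from the other classes was 7.34 on the log2 scale (SE 0.76, adjusted p = 1.5e-07 by edgeR).

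Alox5 was found at 97.6, 67.5 and 22.4 CPM in neutrophil-like cells, from 69, 9 and 1 UMIs. The single UMI of tumor 3 has a 95% Poisson interval of 0.567 to 125 CPM, so that the level in that tumor is hardly fixed. Macrophage-like cells, the next named class, held 2.13, 0 and 1.47 CPM, below all 3 neutrophil-like values. Alox5 was higher in neutrophil-like cells by 8.65 on the log2 scale (SE 0.88, adjusted p = 2.2e-06 by edgeR), a size that depends on the small count added to classes with no UMI, as it does for every gene here with classes at 0. No sum of another class exceeded 3.25 CPM, so Alox5 passed the filter on low counts only through neutrophil-like sums. Having been tested and called is therefore not independent support.

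Alox5ap was the most widespread of the 10 and stood at 1570.4, 1275 and 448 CPM in neutrophil-like cells, at 618, 169 and 181 CPM in macrophage-like cells and at 535 and 125 CPM in the pDC-like cells of tumors 1 and 3. The ranges of these 3 classes overlapped in pairs, since tumor 3 was the lowest of the neutrophil-like and pDC-like sums and tumor 1 the highest of all 3 classes. Relative to the mean of the other classes, the neutrophil-like level was higher by 6.97 on the log2 scale (SE 0.71, adjusted p = 1.1e-07 by edgeR).

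Ptgs1 also passed the test in neutrophil-like cells, on few molecules. Its levels were 24.1, 7.4996 and 44.8 CPM, from 17, 1 and 2 UMIs, and the difference was 3.13 on the log2 scale (SE 0.82, adjusted p = 0.0093 by edgeR). Without tumor 2 that p was 0.0564. In all, 5 of the 7 genes tested were higher in neutrophil-like cells and 0 were lower, where 15.5% of all genes tested were higher and 0.536% lower. Alox5 entered the 7 only through this class, and all 5 were called again with no filter on low counts. Tbxas1 (2.82, SE 1.13, adjusted p = 0.113) and Arg1 (1.85, SE 1.59, adjusted p = 0.611) did not pass the test, and rested on 3 and 1 neutrophil-like UMIs. Without tumor 1, which gave 236 of the 312 neutrophil-like cells, Alox5 and Ptgs1 no longer passed the filter on low counts, and Arg2, Ptgs2 and Alox5ap were again called. DESeq2 did not call Alox5 (adjusted p = 0.111) or Ptgs1 (0.213).

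The same genes were counted by cell. Arg2 was found in 59.7%, 37.0% and 22.7% of them, Ptgs2 in 47.0%, 24.1% and 36.4%, and Alox5ap in 90.3%, 85.2% and 50%, at median depths of 2608, 2231.5 and 2072 UMIs. When each cell was thinned to 500 UMIs, the shares were 23.3%, 16.7% and 4.55% for Arg2, 26.3%, 7.41% and 13.6% for Ptgs2, and 49.6%, 44.4% and 13.6% for Alox5ap. In T cell-like cells, used as a measure of free RNA at median depths of 4902, 1533.5 and 1459 UMIs, Arg2 was found in 0 cells of all 3 tumors, and Ptgs2 and Alox5ap in 1 and 2 of the 147 cells of tumor 1 and in 0 cells of the other tumors.

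Macrophage-like cells held 92.7%, 94.4% and 88.9% of the Tbxas1 UMIs of tumors 1, 2 and 3. Their share was 46.7%, 51.7% and 77.8% for Ptgs1, 67.7%, 28.5% and 77.4% for Alox5ap and 74.1%, 54.8% and 37.3% for Arg1. Of the 7 genes tested, 5 were higher than in the mean of the other classes and 0 were lower, where 10.1% of all genes tested were higher and 0.0545% lower. Tbxas1 and Arg1 entered the 7 only through macrophage-like sums, since sums of other classes reached at most 4.24 and 25.98 CPM. Their calls are therefore not independent support, although all 5 genes were called again with no filter on low counts. The neutrophil-like and macrophage-like comparisons share the sums of the other classes, and each class is part of the other's reference.

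Tbxas1 stood at 20.8, 40.5 and 35.4 CPM in macrophage-like cells, from 127, 17 and 24 UMIs in 93 cells. All 3 values lay above those of the next class. The difference was 5.61 on the log2 scale (SE 0.64, adjusted p = 4.6e-06 by edgeR's quasi-likelihood test). Alox5ap was higher by 4.498 (SE 0.70, adjusted p = 8.2e-05).

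Ptgs1 stood at 18.8, 35.7 and 31.0 CPM, from 115, 15 and 21 UMIs, and was higher by 2.81 on the log2 scale (SE 0.70, adjusted p = 0.0094 by edgeR). These values overlapped those of the neutrophil-like and endothelial-like sums. Arg2 was lower in level here than in neutrophil-like cells but still above the mean of the other classes, by 2.59 (SE 0.79, adjusted p = 0.040). That call was lost with DESeq2-type size factors (adjusted p = 0.107) and without tumor 1 (0.160) or tumor 2 (0.0700).

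Arg1 stood at 3.28, 40.5 and 28.0 CPM in macrophage-like cells, from 20, 17 and 19 UMIs, and was higher by 5.32 on the log2 scale (SE 0.95, adjusted p = 6.6e-04 by edgeR). Tumor 1 had the lowest value. These UMIs came from 9 of the 945 cells, and 5 cells held 52 of the 56, with 17 UMIs in 1 cell of tumor 1, 17 in 2 cells of tumor 2 and 18 in 2 cells of tumor 3. The macrophage markers summed to 8458 CPM in those 5 cells and to 6968 CPM in the others, and their median depth was 9748 UMIs against 5936. The CAF markers summed to 2228 CPM in the 5 cells against 457 CPM in the others, and in tumor 3 to 6638 CPM in the 2 cells against 101.2 CPM. The CAF list includes Fn1, which is also a marker of the Ccr2+ macrophage-like subset described below. That subset held 4 of the 5 cells, and the part of Fn1 in the CAF sums was not tested. Whether the 5 cells are single cells was not tested.

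Ptgs2 (39.6, 54.7 and 23.6 CPM from 242, 23 and 16 UMIs) did not pass in macrophage-like cells, at a log2 difference of 2.70 (SE 1.01, adjusted p = 0.108 by edgeR), although it did when the tumor entered the fit as a replicate block (3.61, SE 0.62, adjusted p = 3.3e-05), with no filter on low counts (adjusted p = 6.6e-05) and with no integration of the tumors (0.0362). Alox5 stood at 2.32 (SE 1.24, adjusted p = 0.364), from 14 UMIs. Without tumor 1, which held 644 of the 945 cells, Tbxas1, Ptgs1 and Arg1 did not pass the filter on low counts, and Alox5ap and Ptgs2 were called. DESeq2 called Alox5ap alone of the 5, with adjusted p of 0.248 for Ptgs1 and 0.276 for Arg2 and none given for Tbxas1 and Arg1.

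Arg2, Alox5 and Ptgs2 separated the 2 myeloid classes when these were compared directly, within the same fit. All 3 were higher in neutrophil-like than in macrophage-like cells, of 7 tested and against 3.2% of all genes, and 0 were lower, against 1.74%. Alox5 was among the 7 only through its neutrophil-like sums, and Tbxas1 and Arg1 only through their macrophage-like sums. The log2 differences were 4.92 for Arg2 (SE 0.84, adjusted p = 0.0017 by edgeR's quasi-likelihood test), 5.76 for Alox5 (SE 1.08, adjusted p = 0.0052) and 4.22 for Ptgs2 (SE 1.04, adjusted p = 0.018), and each gene was higher in the neutrophil-like sum of all 3 tumors. Alox5ap was also higher in the neutrophil-like sum of each tumor, but the difference of 2.24 (SE 0.95, adjusted p = 0.213) passed with the tumor as a replicate block (2.10, SE 0.44, adjusted p = 0.0011), without tumor 1 (2.42, adjusted p = 0.0033) and with no filter on low counts (1.72, adjusted p = 0.0440). Tbxas1 and Arg1 had the opposite sign, at -2.53 (SE 0.90, adjusted p = 0.127) and -3.16 (SE 1.49, adjusted p = 0.283), and neither passed, although Tbxas1 did with no filter on low counts (-3.11, adjusted p = 0.0467) and with no integration (-3.34, adjusted p = 0.0167). For Ptgs1 the difference was 0.29 (SE 0.80, adjusted p = 0.916), with an SE that leaves room for a difference in either direction. Without tumor 2, Arg2 alone was called, and Alox5 and Ptgs2 stood at adjusted p of 0.0571 and 0.0926. DESeq2 likewise called Arg2 alone of the 3 (0.420 for Alox5 and 0.0891 for Ptgs2), and with the authors' corrected counts Alox5 stood at 0.0593.

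**Figure D2:**
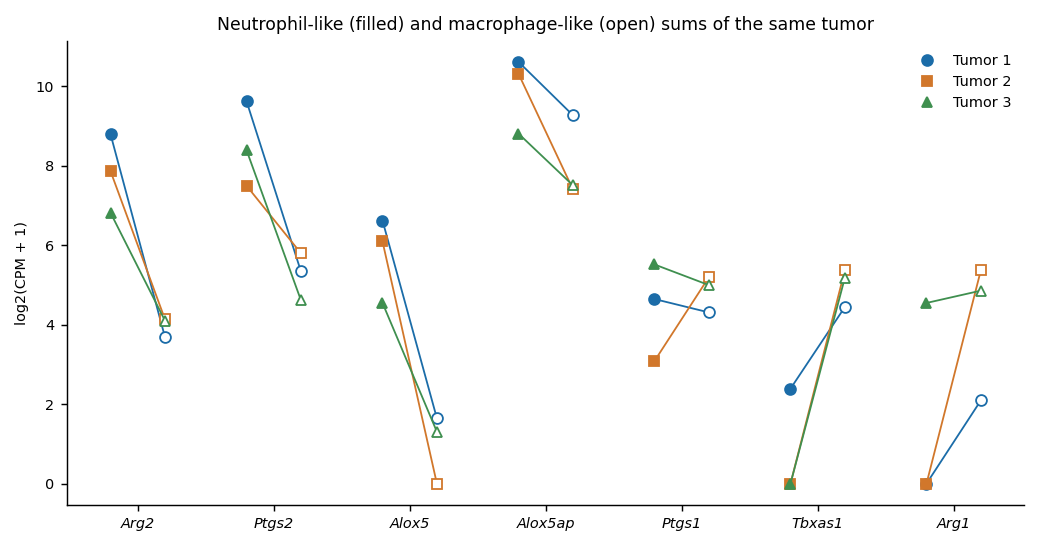
Level of the 7 tested genes in neutrophil-like (filled) and macrophage-like (open) sums, as log2(CPM + 1), with a line joining the sums of the same tumor. The lines of Arg2, Ptgs2, Alox5 and Alox5ap fall in all 3 tumors, those of Tbxas1 and Arg1 rise in all 3, and those of Ptgs1 cross.

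Outside these classes, the cyclooxygenases were found in stromal cells. Ptgs1 was present in 20 of the 26 mesothelial-like cells, with 52, 10 and 3 UMIs in tumors 1, 2 and 3. Only the 16 cells of tumor 1 entered the fit, at 97.6 CPM, and there Ptgs1 was higher than the mean of the other classes by 4.87 on the log2 scale (SE 0.80, adjusted p = 1.7e-04 by edgeR, where 9.1% of genes were higher and 0.0363% lower). This rests on 1 sum, assumed to vary like the others, although the 4 and 6 cells of tumors 2 and 3, left out of the fit, stood at 180 and 69.8 CPM. Endothelial-like cells held Ptgs1 at 46.5, 29.5 and 0 CPM (2.68, SE 0.80, adjusted p = 0.033, against 10.5% of genes higher and 0.0818% lower). In CAF-like cells Ptgs1 stood at 31.9 and 0 CPM in tumors 1 and 3 (2.55, SE 0.84, adjusted p = 0.047, against 13.6% of genes higher and 0.0545% lower).

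Ptgs2 was called higher in CAF-like cells as well, by 3.55 on the log2 scale (SE 1.03, adjusted p = 0.019 by edgeR), with 108 CPM in tumor 1 and 0 UMIs in tumor 3. The 103 CAF-like Ptgs2 UMIs came from 8 cells, and 6 cells of tumor 1 held 100 of them. Those 6 cells had a median of 30702 UMIs, against 7418 in the other CAF-like cells, and their macrophage markers summed to 29.2 CPM, against 159 CPM in the others. Ptgs2 UMIs in B cell-like cells were still more concentrated, with 20 of 21 in 1 cell whose neutrophil markers summed to 2330 CPM, against 65.9 CPM in the other B cell-like cells. Whether that cell is a mixture of 2 cells was not tested.

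Ptges, which acts after the cyclooxygenases, had 33 of its 58 UMIs (56.9%) in 16 CAF-like cells, at 28.7 and 8.01 CPM in tumors 1 and 3 and with 5 UMIs in the 9 cells of tumor 2. A further 16 UMIs lay in 7 macrophage-like cells. Ptges did not pass the filter on low counts in the full fit, but 5 alternatives tested it. With edgeR it was called higher in CAF-like cells by 5.29 with no filter (adjusted p = 1.1e-07), 5.31 without tumor 2 (0.0040), 5.40 with no integration (4.1e-04) and 5.71 with at least 20 cells per sum (1.5e-04). Without tumor 3, which left 1 CAF-like sum, the difference was 5.93. Where the filter was kept, passing it depends on the CAF-like counts, the highest of any class. Being called wherever it was tested is therefore not independent support. In the CAF-like cells of tumor 1, 8 cells held both Ptgs1 and Ptges, each of which was found in 12 of the 46 cells, and the product of the shares gives 3.13 cells. The 8 cells had a median of 30452 UMIs against 16806 for the class, and the part of depth in this count was not tested.

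Alox5ap was the gene of the 10 called in pDC-like cells, the interferon-producing dendritic cells, where it was higher by 4.36 on the log2 scale (SE 0.79, adjusted p = 8.3e-04 by edgeR, against 4.86% of genes higher and 0.0908% lower). It was found in 89.0% and 26.1% of the pDC-like cells of tumors 1 and 3. In B cell-like and tumor-like cells Alox5ap lay mostly in single UMIs, with 16 UMIs in 13 cells and 15 UMIs in 15 cells. In 3 stromal classes, much or part of it sat in a few cells. In endothelial-like cells, 2 cells held 20 of 29 UMIs, and their macrophage markers summed to 6899 CPM against 54.3 CPM in the rest. In mesothelial-like cells, 5 cells held 32 of 33 UMIs, with macrophage markers at 1582 CPM against 32.9 CPM, and in CAF-like cells 1 cell held 7 of 15, with macrophage markers at 3328 CPM against 89.9 CPM. Arg2 in pDC-like cells lay mostly in a single cell, with 5 of 6 UMIs and neutrophil markers at 69171 CPM.

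In tumor-like cells Arg1 was thinly spread, at 8.12, 6.83 and 7.17 CPM, with 43 UMIs in 42 of the 3179 cells and 41 of these cells holding a single UMI. The 3 tumors differed little, and T cell-like cells had values of the same size, at 2.52, 12.2 and 10.2 CPM from 4 UMIs. The tumor-like difference from the other classes was 3.14 on the log2 scale (SE 1.06, adjusted p = 0.0623 by edgeR), and none of the 7 genes was called in tumor-like cells, where 9.43% of all genes were higher and 1.57% lower. Arg1 was called higher with no filter on low counts (3.42, adjusted p = 0.0019), no integration (4.05, adjusted p = 0.0096) and at least 20 cells per sum (3.09, adjusted p = 0.0273), and Alox5ap was called lower with the last 2 of these settings (-4.68, adjusted p = 0.0016, and -3.99, adjusted p = 0.0067) and with DESeq2 (-3.62, adjusted p = 0.0047), which also called Ptgs1 lower (-5.78, adjusted p = 0.0020). None was called either in T cell-like, B cell-like, NK cell-like or erythroid-like cells, where 1.93%, 2.13%, 1.64% and 0.136% of all genes were higher and 0%, 0.0999%, 0% and 0.109% lower. Calls outside the 2 myeloid classes changed when tumor 1 or tumor 2 was left out. Tumor 2 gave no CAF-like, mesothelial-like or pDC-like sum, so in those classes its removal changed only the other sums of the fit. Without tumor 1, 3 of the 10 genes were tested and 0 calls were made, against 5 in the full fit. Without tumor 2, Ptgs2 in CAF-like cells (adjusted p = 0.0755), Ptgs1 in CAF-like cells (0.168) and Ptgs1 in endothelial-like cells (0.160) were no longer called. With the authors' corrected counts, Ptgs1 in CAF-like cells (0.154) and Alox5ap in pDC-like cells (0.191) were lost, and DESeq2 called none of the Ptgs1 and Ptgs2 differences in mesothelial-like, endothelial-like and CAF-like cells.

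**Figure D3:**
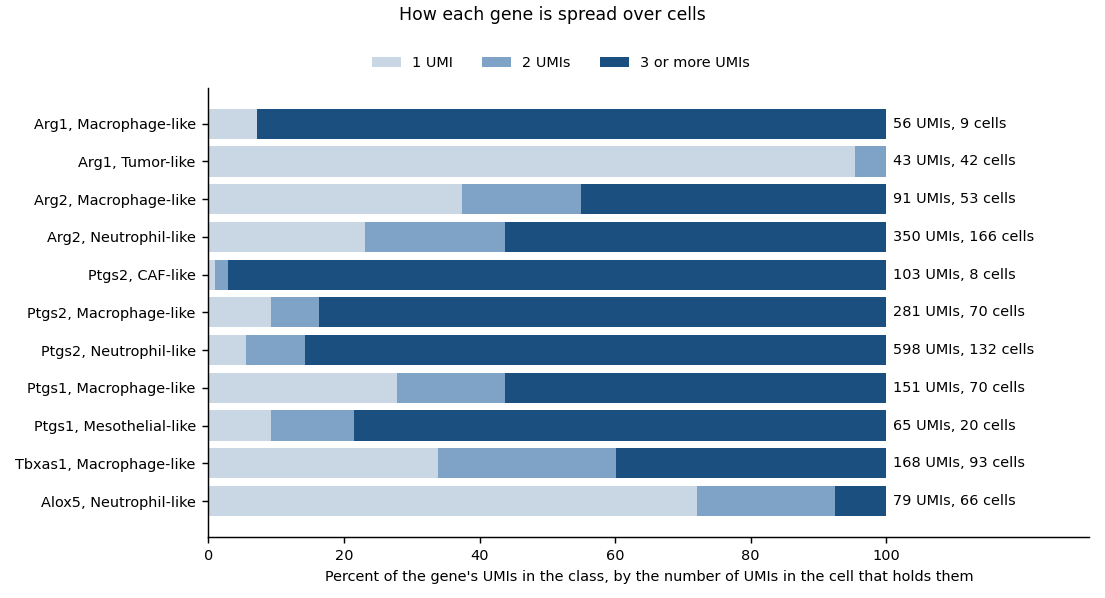
How the UMIs of a gene are spread over the cells of a class, as the percent of the gene's UMIs in cells with 1, 2 or at least 3 of them. The number of UMIs and of cells with a UMI stands at the right of each bar. Arg1 lies in a few cells with many UMIs in macrophage-like cells (56 UMIs in 9 cells) and in single UMIs in tumor-like cells (43 UMIs in 42 cells).

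Ptgs2 was concentrated in myeloid cells too. Cells with at least 3 Ptgs2 UMIs numbered 73 of the 312 neutrophil-like cells and held 513 of the 598 UMIs, and 34 of the 945 macrophage-like cells held 235 of 281. The 73 neutrophil-like cells had a median depth of 2650 UMIs, close to the 2386 of the others, and their neutrophil markers summed to 95719 CPM against 154595 CPM. Arg2 was less concentrated, with 197 of 350 UMIs in 49 neutrophil-like cells with at least 3, and Alox5 was found mostly as single UMIs, with 1 cell holding 3 or more.

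Pairs of genes were also counted in the same cells. Arg2 and Ptgs2 were both found in 73, 9 and 1 neutrophil-like cells of tumors 1, 2 and 3, where the product of their shares gives 66.3, 4.81 and 1.82 cells. Alox5 and its partner Alox5ap were found together in 55, 6 and 1 cells, against 51.4, 6.81 and 0.5 from the product of shares. In macrophage-like cells Ptgs1 and Tbxas1, successive enzymes on the way to thromboxane, met in 23, 4 and 5 cells, against 4.61, 0.765 and 1.43. The cells with both in tumor 1 had a median of 22569 UMIs against 8404 for the class, and the part of depth in this count was not tested. Ptgs1 and Ptgs2 met in 5, 1 and 0 macrophage-like cells, against 3.70, 0.765 and 0.677.

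Within the macrophage-like class, 3 subsets were named from their markers, as Ccr2+ (221 cells), Apoe+ (118 cells) and Pecam1+ (224 cells), with 382 cells left unnamed. Ptgs1 and Tbxas1 sat in the Apoe+ subset. Ptgs1 stood at 76.1, 83.8 and 75.2 CPM there, at 2.71, 0 and 22.7 CPM in the Ccr2+ subset and at 0 UMIs in all 224 Pecam1+ cells, where 3 UMIs would have been 2.81, 49.6 and 35.7 CPM. The Apoe+ values of the 3 tumors lay close together and above all values of the other subsets. Tbxas1 stood at 74.5, 114 and 80.2 CPM in Apoe+ cells, at 12.2, 50.2 and 45.4 CPM in Ccr2+ cells and at 0 UMIs in Pecam1+ cells. Within the Apoe+ subset the 2 genes met in 22, 4 and 4 cells, against 17.4, 4 and 3.6 from the product of shares, so that the excess seen over the whole class was smaller here.

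Both enzymes are also abundant in platelets. Of 7 platelet markers, Pf4 alone was found in the Apoe+ sums of tumors 2 and 3, where Ppbp, Itga2b, Gp9, Gp1bb, Gp6 and Tubb1 were at 0, and in tumor 1 Ppbp, Gp9, Gp1bb and Gp6 were at 0. The summed platelet list stood at 87.6, 60.9 and 847 CPM in Apoe+ cells, at 168, 1003.7 and 193 CPM in Ccr2+ cells and at 1.87, 0 and 11.9 CPM in Pecam1+ cells. Pf4 was also among the 10 leading genes of a macrophage-like cluster at the lower clustering resolution, so these sums do not measure platelet RNA alone.

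Ptgs2 had the opposite preference, with 75.1, 276 and 79.5 CPM in Ccr2+ cells, 23.1, 30.5 and 5.01 CPM in Apoe+ cells and 3.74, 0 and 0 CPM in Pecam1+ cells. The 3 ranges did not overlap. Alox5ap was found in all subsets, at 988, 753 and 420.3 CPM in Ccr2+ cells, 469, 215 and 274 CPM in Pecam1+ cells and 260.5, 38.1 and 135 CPM in Apoe+ cells. Its values overlapped between neighbouring subsets, but the Ccr2+ value was the highest of the 3 within each tumor. Arg1 was found in 4 Ccr2+ cells (40 UMIs) and 3 Apoe+ cells (14 UMIs), at 7.69, 125 and 204 CPM and at 1.54, 91.4 and 0 CPM, and in 0 Pecam1+ cells.

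The fit on the subsets could test only Alox5ap and Arg1, since 2402 genes passed the filter on low counts. Neither was called in any subset, where 7.7% of genes were higher and 3.54% lower in Apoe+ cells, 1.17% and 0.708% in Ccr2+ cells, and 5.12% and 4.95% in Pecam1+ cells. The 6 differences tested by edgeR included 4 with an unadjusted p under 0.05, and DESeq2 called 2 of them. Alox5ap differed by 1.64 on the log2 scale in Ccr2+ cells (SE 0.47, adjusted p = 0.150) and by -1.52 in Apoe+ cells (SE 0.52, adjusted p = 0.0891), and both passed with the tumor as a replicate block (1.70, SE 0.30, adjusted p = 0.0050, and -1.57, SE 0.33, adjusted p = 0.0038). Without the filter on low counts, 15401 genes were tested and 8 differences of the 10 genes were called. Among these, edgeR called Ptgs1 and Tbxas1 higher in Apoe+ cells (6.23, SE 0.80, adjusted p = 6.4e-07, and 5.30, SE 0.74, adjusted p = 3.6e-06, where 2.51% of genes were higher and 0.669% lower) and Ptgs2 higher in Ccr2+ cells (3.65, SE 0.58, adjusted p = 1.1e-04, where 0.578% of genes were higher and 0.234% lower). Ptgs1, Tbxas1, Ptgs2 and Arg1, with 0 to 4 UMIs in Pecam1+ cells, were called lower there, at log2 differences of -6.41, -7.58, -3.83 and -7.36 (adjusted p = 0.0050, 1.0e-04, 0.0027 and 0.026, where 1.12% of genes were higher and 1.06% lower), and Arg1 higher in Ccr2+ cells (5.12, adjusted p = 0.026). The sums of tumors 2 and 3 rest on 10 to 30 cells per subset.

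**Figure D4:**
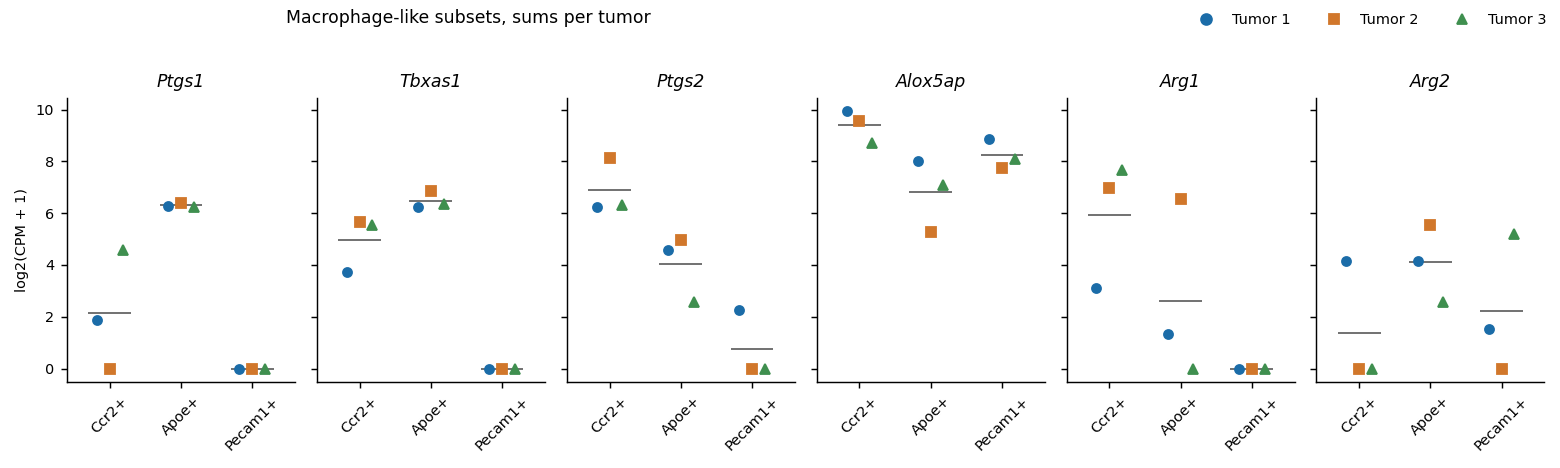
Level of 6 genes in the 3 named macrophage-like subsets, as log2(CPM + 1) with 1 symbol per tumor and grey bars for means. Ptgs1 and Tbxas1 are highest in the Apoe+ subset of every tumor and at 0 in the Pecam1+ subset, and Ptgs2 is highest in the Ccr2+ subset of every tumor.

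Nos2 and Ido1 were close to absent from the kept cells. Nos2 had 4 UMIs in 4 of the 99 endothelial-like cells, 2 in neutrophil-like cells and 1 in a tumor-like cell, and 0 in the 945 macrophage-like cells, where 3 UMIs would have been 0.492, 7.14 and 4.42 CPM. A level under those limits was not detectable. With no filter on low counts, edgeR called Nos2 higher in endothelial-like cells (4.34, adjusted p = 0.0021), from these 4 UMIs. Ido1 had 1 UMI, in a pDC-like cell of tumor 1.

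The genes whose levels most resembled each member over the 26 sums were taken by Pearson's r of log2 CPM among 7086 genes, as a description, since sums of a class and of a tumor share cells and depth. For Arg2 these were Trem1 (0.918), Cd177 (0.915) and Hcar2 (0.910), and for Ptgs2 they were Hp (0.958), Csf3r (0.932) and Chil1 (0.932). Trem1 and Csf3r belong to the markers that named the neutrophil-like class. Alox5 was closest to Il1f9 (0.983), Asprv1 (0.983) and Gm17619 (0.982), and Alox5ap to Plbd1 (0.960), Slc15a3 (0.941) and Cd300a (0.935). Tbxas1 was closest to Lilra5 (0.936), Trem2 (0.925) and F10 (0.922), and Ptgs1 to Xdh (0.912), Tgm2 (0.874) and Mgst1 (0.862). Arg1 had the weakest neighbours, Cd5l (0.730), Gdpd1 (0.665) and Mmp12 (0.663).

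The pathways around the 10 genes were described with 62 further genes in 4 lists, of which 38 were tested. In neutrophil-like cells, 7 of the 38 were higher and 0 lower, and 5 of these 7 belonged to the 8 tested leukotriene genes, whose median log2 difference was 4.40 against 0.38 over all genes. Over all genes tested 15.5% were higher and 0.536% lower. They were the leukotriene C synthase Ltc4s (6.14, adjusted p = 7.2e-06), the gamma-glutamyltransferase Ggt5 (5.84, adjusted p = 8.4e-08), which processes leukotriene C, the receptors Ltb4r1 (6.93) and Fpr2 (6.88), and Cotl1 (2.61), an actin-binding partner of Alox5. Gch1, which makes the cofactor of nitric oxide synthases, was higher by 1.80 (adjusted p = 0.0083), and the phospholipase Pla2g4a, which frees arachidonic acid, by 3.001 (adjusted p = 0.031). None of the 7 tested tryptophan genes was called.

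In macrophage-like cells, 14 of the 38 were higher and 0 lower, with 2 of 10 arginine, 2 of 7 tryptophan, 5 of 13 prostanoid and 5 of 8 leukotriene genes, where 10.1% of all genes were higher and 0.0545% lower. The medians of these lists were 0.82, 2.15, 0.85 and 2.71 on the log2 scale, against 0.46 over all genes. The prostaglandin D synthase Hpgds was higher by 5.45 (SE 0.60, adjusted p = 1.4e-06 by edgeR), the prostaglandin-degrading dehydrogenase Hpgd by 5.76 (adjusted p = 2.1e-05), Pla2g4a by 3.94 (adjusted p = 1.9e-04), the prostaglandin receptor Ptger4 by 2.47 (adjusted p = 0.0079) and the exporter Abcc4 by 2.34 (adjusted p = 0.040). Gatm, which uses arginine to start creatine synthesis, was higher by 3.68 (adjusted p = 5.2e-06) and the arginine-rebuilding enzyme Ass1 by 3.05 (adjusted p = 0.022). In the tryptophan list, the amino acid oxidase Il4i1 was higher by 4.497 (adjusted p = 0.011) and Ahr, the receptor that binds kynurenine, by 2.15 (adjusted p = 0.0079). The leukotriene genes called were Dpep2 (5.20, adjusted p = 6.6e-05), Ltc4s (3.42, adjusted p = 0.015), Ltb4r1, Fpr2 and Cotl1.

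Set directly against each other, the 2 myeloid classes differed in 5 of the 38 genes, 1 higher and 4 lower, where 3.2% of all genes were higher and 1.74% lower. Ggt5 was higher in neutrophil-like cells by 3.78 (SE 0.63, adjusted p = 0.0013 by edgeR), with 59.7 ± 7.4 CPM (SD, n = 3) against 6.4 ± 2.8 CPM. The other 4 were lower in neutrophil-like cells. Hpgds differed by -5.18 (SE 1.14, adjusted p = 0.0087), from 75.1 ± 24.4 CPM (SD, n = 3) in macrophage-like cells. Hpgd differed by -8.29 (SE 2.10, adjusted p = 0.027) and had 0 UMIs in neutrophil-like cells. Gatm differed by -3.09 (SE 0.70, adjusted p = 0.010) and Ahr by -2.78 (SE 0.81, adjusted p = 0.049).

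**Figure D5:**
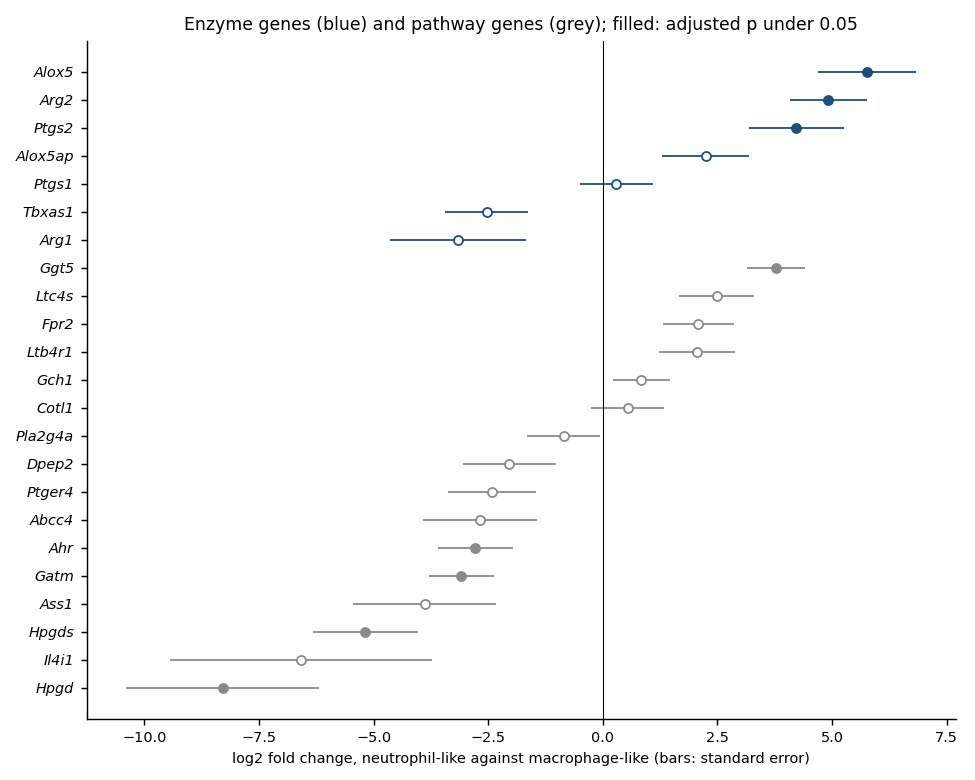
Log2 difference of neutrophil-like from macrophage-like cells for the 7 tested genes of the 10 (blue) and for the pathway genes called in either class (grey), with bars of 1 standard error. Filled points have an adjusted p under 0.05. Alox5, Arg2 and Ptgs2 lie at the upper end with Ggt5, while Hpgds, Hpgd, Gatm and Ahr lie below 0.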

How the data were processed

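Whole tumors of 3 mice were profiled with the 10x Genomics 3′ kit (v3.1). The authors deposited raw UMI counts per gene and barcode, and the submitters' processing notes list Cell Ranger 3.1.0, Seurat 3.1.5 and the build mm10. A second table per tumor, also deposited, holds natural log values: their exponential minus 1, here called the corrected count, was whole in 100% of values (within 1e-06). Per the study's filtering table, ambient RNA was subtracted and doublets and low-quality barcodes were taken out before these tables were made. In tumor 1, Alox5ap was found in 1172 cells by corrected counts and in 893 by raw counts, which subtraction alone cannot give. What else changed the counts was not tested. No further doublet caller was run. Barcodes in the normalized tables defined the kept cells, and all values except those of the corrected-count alternative come from their raw counts.

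Clustering used Seurat 5.3.0 under R 4.3.3 (canonical correlation integration, 2000 variable genes, 30 dimensions, 20 neighbors, resolution 1, and 0.5 for macrophage-like cells), with 72 genes held out, namely the members and the pathway genes. A cluster was named "X-like" if 3 or more markers reached a fold of 2 over the other cells and 10% of its cells held them. At resolution 1, a cluster led by Jchain and Igha was left unnamed, a choice made after the clusters were seen. Elane and Mpo were also among its 10 leading genes. The other cluster left unnamed at that resolution was led by Akr1cl and Cyp11a1. It had 7 markers that met the rule, but 0 markers of that list were among its 10 leading genes, against 2 of another list. The members and lists were chosen with earlier results of these data known. The text names all 10 members and those pathway genes called in a myeloid comparison.

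Sums of at least 10 cells were compared with edgeR 4.0.16 (TMM, filterByExpr, quasi-likelihood test, two-sided, Benjamini-Hochberg, threshold 0.05). DESeq2 1.42.0 was an alternative. CPM values are UMIs per 1000000 UMIs of the sum, without TMM factors. The p-values come from 26 class sums and 9 subset sums of 3 tumors. The main fits had no tumor term, treated the sums as independent and let classes with few sums borrow the spread of the others. Poisson and exact binomial intervals cover counting error only. Sums of a tumor share the animal, so the tumor number pairs them. Deviations of neutrophil-like and macrophage-like sums from their class means correlated at 0.612, 0.281 and 0.289 within tumors 1, 2 and 3 and at -0.440 to 0.221 between tumors, over 11009 genes. The tests were also run on simulated counts with known differences. Those counts were drawn independently for each sum from a common profile, so they cannot check the effect of sums that share a tumor. Gene positions: GENCODE M21 (GRCm38) gives Arg1 at chr10:24915221-24927484, Arg2 at chr12:79130777-79156301, Nos2 at chr11:78920787-78960254, Ido1 at chr8:24584136-24597009, Ptges at chr2:30889471-30929863, Ptgs1 at chr2:36230426-36252272, Ptgs2 at chr1:150100031-150108227, Alox5 at chr6:116410077-116461178, Alox5ap at chr5:149264767-149288153 and Tbxas1 at chr6:38875404-39084585, all protein-coding.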

Additional observations from a re-analysis of the deposited data

Results flagged for a closer look

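The barcodes that the authors did not keep held UMIs of 9 of the 10 genes, above the 3 UMIs allowed by a count of 0, and these barcodes enter no comparison above. Their median share of mitochondrial UMIs was 27.9%, 35.0% and 37.7% in tumors 1, 2 and 3, against 3.17%, 3.13% and 2.44% in kept cells. Ptgs1 had the most, with 392 UMIs in 64 barcodes, more than its 302 UMIs in kept cells. Of these, 323 lay in 34 barcodes of tumor 1, which had a median of 65985 UMIs where the deepest kept cell of that tumor had 56703. The mesothelial markers summed to 2473 CPM in those 34 barcodes and to 1174 CPM over all barcodes of the tumor that were not kept, and the macrophage markers to 2349 against 1293 CPM.

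Arg1 had 171 UMIs in 117 barcodes that were not kept, of which 46 lay in 3 barcodes of tumor 1 with a median of 101147 UMIs. Alox5ap had 334, Ptgs2 108, Arg2 104 and Tbxas1 98 such UMIs. Of the Arg2 UMIs, 77 lay in 71 barcodes of tumor 3, so that nearly all were single UMIs. Ptges had 42, of which 32 lay in 13 barcodes of tumor 1 whose CAF markers summed to 37086 CPM against 12275 CPM over all that were not kept. Alox5 had 12 and Nos2 had 11, more than the 7 Nos2 UMIs of kept cells, and 8 of the 11 lay in 5 barcodes of tumor 1 whose endothelial markers summed to 7613 CPM against 665 CPM. Whether these barcodes are single cells was not tested.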

How the results depend on the processing

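Depth and cell number limit these results, since Alox5 in tumor 3 rests on 1 neutrophil-like UMI and calls outside the myeloid classes rest mostly on tumor 1. The number of genes called in neutrophil-like cells was 5, and 3 with DESeq2 (Alox5 and Ptgs1 lost) and 3 to 5 when each tumor was left out. In macrophage-like cells it was 5, and 1 with DESeq2 and 2 with the authors' corrected counts (Arg1 and Tbxas1 not tested, Arg2 lost). It was 3 at a lower and 3 at a higher clustering resolution (Arg1 and Tbxas1 not tested, no tested call lost), and 2 to 5 with a tumor left out. For neutrophil-like against macrophage-like cells it was 3, and 1 with DESeq2 (Arg2), 5 with no filter on low counts, and 1 to 3 with a tumor left out. In the other classes it was 5, and 3 with DESeq2, which lost all but Alox5ap in pDC-like cells and called Alox5ap and Ptgs1 lower in tumor-like cells, 3 with corrected counts, 9 with no filter, 8 with no integration, and 0 to 6 with a tumor left out. In the subsets it was 0, and 2 with DESeq2, 2 with corrected counts, 8 with no filter, 4 at a lower and 4 at a higher resolution, 4 with no integration, 6 with at least 20 cells per sum, and 0 to 6 with a tumor left out.

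With the tumor as a replicate block, 2 subset differences were called, of Alox5ap in Ccr2+ and Apoe+ cells, and 5, 6 and 4 genes in the neutrophil-like, macrophage-like and direct comparisons; apart from Ptgs2 in macrophage-like cells, Alox5ap in the direct comparison and these 2, it changed no call. With each tumor left out, the Ptgs2 difference in CAF-like cells ran from -2.37 (without tumor 1, where the remaining sum held 0 UMIs) to 4.07 (without tumor 3). The mean share of cells with a UMI at 500 UMIs was 14.8% for Arg2, 15.8% for Ptgs2 and 35.9% for Alox5ap in neutrophil-like cells and 11.95% for Alox5ap in macrophage-like cells. Without thinning these shares were 39.8%, 35.8%, 75.1% and 47.8%, in the corrected counts 38.2%, 34.2%, 74.5% and 43.9% (and, for Alox5ap, 21.4% in tumor-like and 5.90% in T cell-like cells, from 64% and 17.7% in tumor 1, against 0.667% and 0.454% in the raw counts), and Alox5ap in neutrophil-like cells stood at 55.3% at 1000 UMIs. Of the single-gene values under all alternatives, 171 kept their direction and call, 25 kept the direction and lost the call, and 1 changed sign. Settings in which a gene was not tested or had no adjusted p are left out of these counts. Calls lost through the filter on low counts are therefore not among the 25. Except where an alternative leaves out samples or genes, the cause of a change was not tested.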
